A study of Mus musculus with 20 samples.

Results

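The metallothionein and zinc transporter genes examined here were Mt1, Mt2, Mt3, Mtf1, Slc30a1, Slc30a3, Slc30a4, Slc39a6 and Slc39a10, chosen by symbol from the 14700 genes listed in the 4 deposited expression tables. Of these 9 genes, 8 had a row in all 4 tables, and Slc30a3, the transporter that loads zinc into synaptic vesicles, had none and is not analysed here. The libraries were made from primary neurons of the mouse cortex, prepared at E15 (embryonic day) and used after 7 days in culture. Cultures were wild-type (WT) or lacked ciRS-7 (KO), a circular RNA listed as Cdr1as. They then spent 12 h in normoxia or with little oxygen and no added glucose (oxygen-glucose deprivation, OGD), a culture model of ischemia. The N_WT and N_KO groups had medium with glucose added at 25 mM, and with pyruvate, at 5% CO2 and 37 °C. The OGD_WT and OGD_KO groups had medium without these additions at 1% oxygen, 5% CO2 and 37 °C. Each group had 5 libraries, and the strain label C57BL/6N-Cdr1asem1Nikr was the same for all 20, wild-type cultures included. A normoxia and an OGD library shared each culture label (WT1 to WT5, KO1 to KO5) and its batch label. The labels do not say whether the 5 cultures of a genotype came from separate animals or litters, so p-values measure the spread between these libraries.

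Metallothioneins are small cysteine-rich proteins that bind zinc and copper and release zinc when they are oxidised. Zinc activates the transcription factor MTF1, which binds metal response elements in the promoters of Mt1, Mt2 and Slc30a1. Transporters of the SLC30 family carry zinc out of the cytosol, across the plasma membrane or into vesicles, and those of the SLC39 family carry it into the cytosol. In the brain Mt1 and Mt2 are best known from glia, Mt3 is the brain-enriched member, and zinc released during ischemia can harm neurons.

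The Mt genes lie close together on 1 strand of chromosome 8 (mm10, gene models of GENCODE M21). Mt3 is at chr8:94152607-94154146, Mt2 at chr8:94172664-94173568 and Mt1 at chr8:94179082-94180327, with 5514 bases between Mt2 and Mt1. Slc30a1 is at chr1:191906767-191913247, Slc39a10 at chr1:46807544-46892852, Slc30a4 at chr2:122681233-122702663 and Mtf1 at chr4:124802104-124849800. The promoters of the 3 metallothioneins and of Slc30a1 are shown because these genes share reported MTF1 control in part and responded to OGD in different ways. Each runs 5′ to 3′ on the gene's strand, from 250 bases before the RefSeq start site to 30 bases after it (RefSeq, GRCm38.p6), and capitals mark the core of a metal response element, TGCACNC or TGCGCNC on either strand.
Mt1: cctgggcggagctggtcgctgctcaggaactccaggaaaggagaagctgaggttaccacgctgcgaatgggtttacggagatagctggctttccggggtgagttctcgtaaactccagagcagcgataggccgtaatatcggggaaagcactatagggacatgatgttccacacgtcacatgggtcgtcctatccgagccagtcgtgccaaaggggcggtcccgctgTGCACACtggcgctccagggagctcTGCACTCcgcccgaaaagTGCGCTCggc
Mt2: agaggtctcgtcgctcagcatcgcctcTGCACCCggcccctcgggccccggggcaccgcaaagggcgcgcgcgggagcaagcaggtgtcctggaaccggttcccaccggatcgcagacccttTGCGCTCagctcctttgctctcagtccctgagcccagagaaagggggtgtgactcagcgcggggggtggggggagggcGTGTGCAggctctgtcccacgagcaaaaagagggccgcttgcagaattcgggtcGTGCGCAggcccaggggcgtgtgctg
Mt3: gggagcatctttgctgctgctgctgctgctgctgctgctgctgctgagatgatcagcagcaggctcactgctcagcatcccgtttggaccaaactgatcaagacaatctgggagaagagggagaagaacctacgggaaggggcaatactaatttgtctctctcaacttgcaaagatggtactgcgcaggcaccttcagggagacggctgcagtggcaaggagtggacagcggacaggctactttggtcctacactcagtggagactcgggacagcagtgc
Slc30a1: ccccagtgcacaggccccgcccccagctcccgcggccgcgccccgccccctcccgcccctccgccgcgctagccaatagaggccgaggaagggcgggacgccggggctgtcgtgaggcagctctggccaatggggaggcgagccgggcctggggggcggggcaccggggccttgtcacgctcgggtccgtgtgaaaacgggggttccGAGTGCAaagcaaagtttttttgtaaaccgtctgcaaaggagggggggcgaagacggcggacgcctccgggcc

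These windows are chr8:94178839-94179118 for Mt1, chr8:94172368-94172647 for Mt2, chr8:94152357-94152636 for Mt3 and chr1:191906531-191906810 for Slc30a1. The Mt2 window held 4 metal response cores, and 0.405% of the 32851 promoter windows of this length held 4 or more. The Mt1 window held 3, and 1.73% of windows held 3 or more. The first of the Mt1 cores began 23 bases before the RefSeq start site, and the others lay just after it. Counts and positions hold for these windows only, and another choice of start site would change them. Slc30a1 had 1 core, 43 bases before its start, which 24.1% of windows matched with at least 1. The Mt3 window had none, and neither did those of Mtf1 and Slc39a10. Slc30a4 had 3. The core of the hypoxia response element, ACGTG or GCGTG on either strand, occurred in 41.8% of windows, and 19.2% held 2 or more. It occurred 2 times each in the windows of Mt1 and Mt2, once in that of Slc30a1 and not in that of Mt3. Slc30a4 held 3 of these cores, where 8.09% of windows held 3 or more, and Mtf1 and Slc39a10 held none. Of the 9 genes, 8 had a window, and Slc39a6 had none. A match describes letters, not binding.

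Libraries held between 7071506 and 16658618 recovered reads over the genes listed. For the gene targeted in the KO cultures, Cdr1as, there were 700 to 1365 reads per N_WT library and 545 to 1912 per OGD_WT library, against 5 to 16 per N_KO library and 2 to 14 per OGD_KO library. Slc2a1, a glucose transporter induced by hypoxia, rose by 3.95 in WT and 3.50 in KO on the log2 scale. All 10 cortical neuron markers were present. The mitochondrial ribosomal RNA mt-Rnr2 took between 10.1% and 16.5% of reads in normoxia and between 13.8% and 32.0% under OGD. Levels are given as CPM, the recovered reads of a gene scaled to library size, with all 20 libraries on a single scale. Fold changes come from the limma fit of each comparison within its own table, which differed by at most 0.03 (log2) from the joint scale for these 8 genes.

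**Figure D1:**
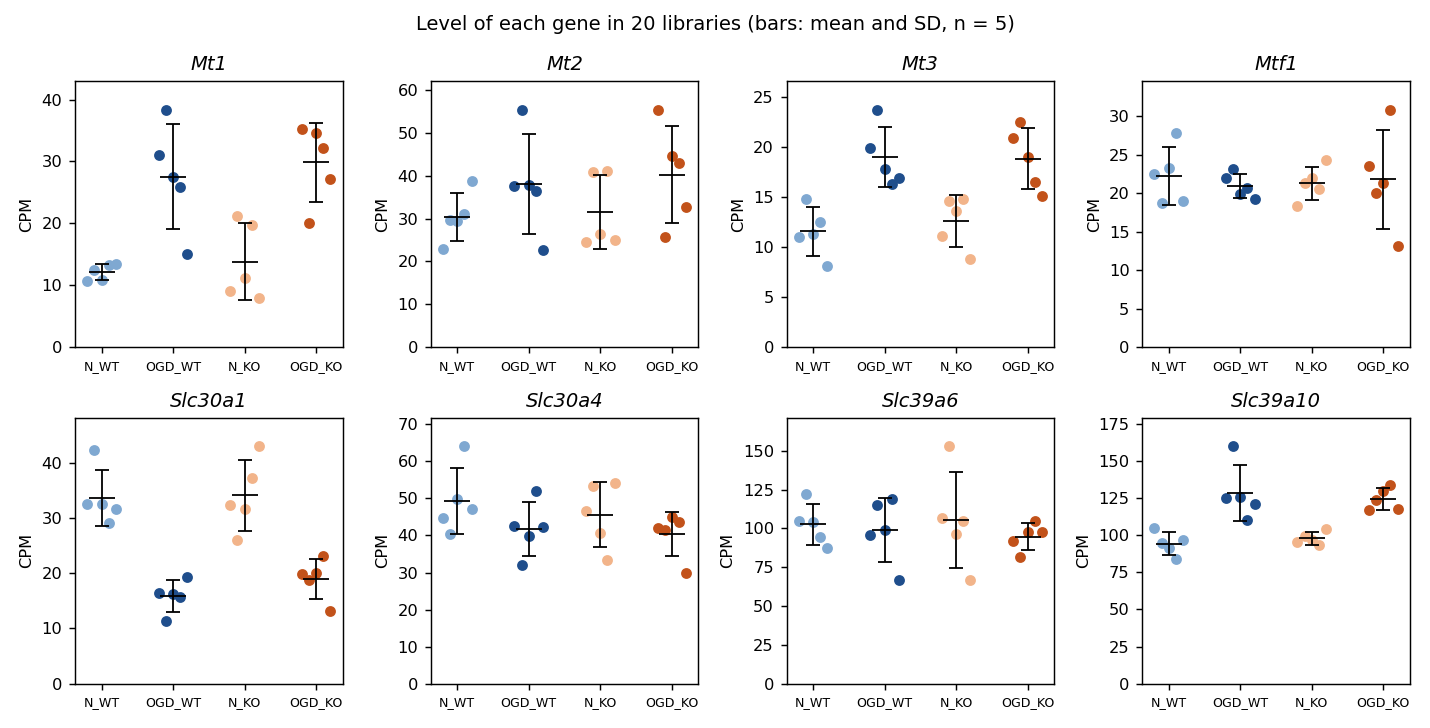
Level of each of the 8 genes in CPM (linear axis from 0) in the 5 libraries of N_WT, OGD_WT, N_KO and OGD_KO; points are libraries in the order of their replicate numbers, and black bars are the mean and SD. For Mt1 the 5 N_WT libraries sit between 10.7 and 13.4 CPM and the 5 OGD_WT libraries between 15.1 and 38.4 CPM, while for Slc30a1 the OGD libraries lie below the normoxia libraries in both genotypes.

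Under OGD, Mt1, Mt3 and the zinc importer Slc39a10 rose in WT cultures, and the zinc exporter Slc30a1 fell. Mt1 rose 2.13-fold and Slc30a1 fell to 0.469 of its normoxia level, so the largest rise and the largest fall among the 8 genes were of equal size. In KO cultures the same 4 genes passed the threshold in the same directions. In WT, 4 of 8 genes were called (adjusted p under 0.05), 3 higher and 1 lower, where 44.3% of all 14235 genes were called, 21.6% higher and 22.8% lower. In KO, 4 of 8 were called, where 40.9% of 14375 genes were, 21% higher and 19.9% lower. The 2 groups did not overlap for 4 of 8 genes in WT and 3 of 8 in KO, as for 26.9% and 25.8% of all genes. The members were thus called about as often as genes in general. The median log2 fold change of the 8 genes was 0.10 in WT and 0.17 in KO, beside -0.03 and 0.00 over all genes. Scaling to total recovered reads moved the median of all genes to -0.30 in WT and -0.28 in KO. It also moved the calls over all genes from 3069 higher and 3244 lower to 1625 higher and 5744 lower in WT, and from 3021 and 2863 to 1479 and 5289 in KO. Among the 8 genes, that scale called Mt1 and Mt3 higher and Slc30a1, Slc30a4 and Mtf1 lower in WT, 5 in all, and Mt1 higher and Slc30a1 lower in KO. Every change below is therefore relative to the bulk of genes.

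**Figure D2:**
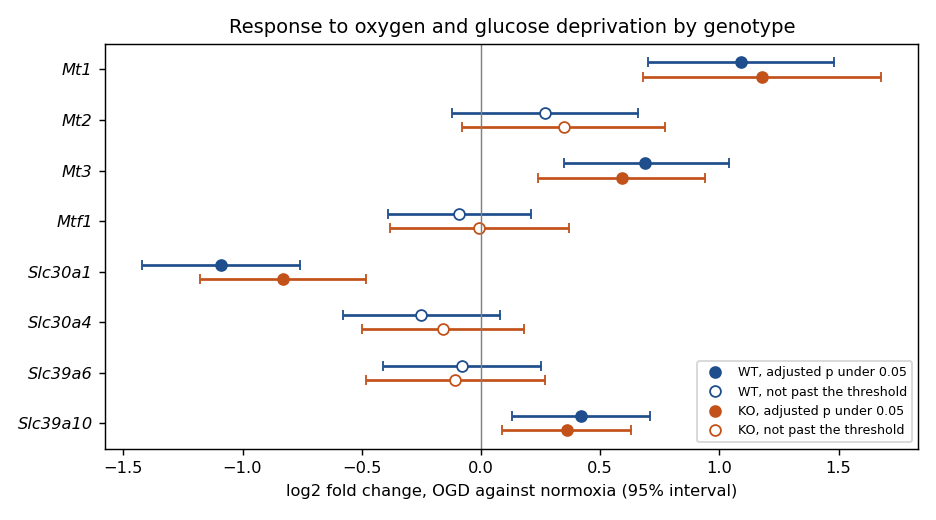
Log2 fold change under OGD against normoxia for the 8 genes in WT (blue) and KO (orange) cultures, with 95% intervals from limma on 5 libraries per group; filled points have an adjusted p under 0.05. Mt1 is at 1.09 in WT and 1.18 in KO and Slc30a1 at -1.09 and -0.83, and the intervals of the genotypes overlap for each gene.

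Mt1, which with Mt2 forms the widely expressed, metal-inducible pair of the family, stood at 10.7, 12.5, 10.8, 13.3 and 13.4 CPM in the N_WT libraries (replicates 1 to 5). In OGD_WT it stood at 31, 38.4, 27.5, 25.8 and 15.1 CPM. The groups did not overlap, although OGD_WT replicate 5 came close to the normoxia libraries. In N_KO the values were 9, 21.2, 11.1, 19.8 and 7.88 CPM, and in OGD_KO they were 35.2, 20, 34.6, 32.2 and 27.2 CPM. Here the groups overlapped, because N_KO replicate 2 was above OGD_KO replicate 2. Mt1 rose by 1.09 ± 0.19 (log2, SE, n = 5 per group, limma adjusted p = 8.9e-05) in WT and by 1.18 ± 0.24 (limma adjusted p = 0.000707) in KO. The level was higher in 5 of 5 WT cultures, which follows from the lack of overlap, and in 4 of 5 KO cultures. Batch 3 (labels 3.1 to 3.3) held cultures WT2 to WT5 and KO2, KO4 and KO5. With these alone the rise was 0.99 in WT (limma adjusted p = 0.00103) and 0.79 in KO (limma adjusted p = 0.0553), so the KO call was lost. This smaller KO fit called 2341 of all genes, against 5884 with all cultures, and KO2 and KO4 carry the label 3.1 described below. Both limits apply to each KO result within batch 3.

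Mt2 was the most abundant of the 3 metallothioneins and did not pass the test in either genotype. Its levels were 22.9, 29.6, 29.5, 31.1 and 38.8 CPM in N_WT and 37.7, 55.5, 37.8, 36.5 and 22.6 CPM in OGD_WT. In N_KO they were 24.5, 40.9, 26.5, 41.1 and 25.0 CPM, and in OGD_KO 55.3, 25.7, 44.7, 42.9 and 32.8 CPM. The groups overlapped in both genotypes, and OGD_WT replicate 5 was lower than every N_WT library. The difference was 0.27 ± 0.19 (limma adjusted p = 0.256) in WT and 0.35 ± 0.20 (limma adjusted p = 0.179) in KO. Of the 10 WT fits that left out 1 library, 1 called Mt2, at 0.44 without OGD_WT replicate 5. Without OGD_WT replicate 2 the WT difference was 0.12. These 2 libraries had the lowest and the highest Mt2 of OGD_WT, so leaving them out moves the difference by construction, and no p-value is given. With batch 3 cultures alone the difference was 0.17 in WT and turned to -0.06 in KO. Scaled to total reads it was -0.01 in WT and 0.06 in KO.

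Mt3, the brain-enriched metallothionein first described as a growth inhibitory factor, stood at 11, 14.8, 11.3, 12.5 and 8.07 CPM in N_WT and at 19.9, 23.7, 17.8, 16.3 and 16.9 CPM in OGD_WT. In N_KO it stood at 11.1, 14.6, 13.6, 14.8 and 8.75 CPM, and in OGD_KO at 20.9, 22.5, 19.0, 16.5 and 15.1 CPM. The OGD libraries were above the normoxia libraries in both genotypes without overlap. Mt3 rose by 0.69 ± 0.17 (1.62-fold, limma adjusted p = 0.00183) in WT and by 0.59 ± 0.17 (1.5-fold, limma adjusted p = 0.00912) in KO. It rose in 5 of 5 cultures of each, which follows from the lack of overlap. With batch 3 cultures alone the rise was 0.66 (limma adjusted p = 0.0141) in WT and 0.52 (limma adjusted p = 0.254) in KO. The KO call was also lost when libraries were scaled to total reads, where the difference was 0.31 (limma adjusted p = 0.175).

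The balance between Mt1 and Mt2 shifted with OGD. A ratio within a library does not depend on how libraries are scaled. The log2 ratio of Mt1 to Mt2 was -1.09, -1.23, -1.44, -1.21 and -1.52 in N_WT and -0.28, -0.53, -0.45, -0.50 and -0.58 in OGD_WT. It was -1.43, -0.94, -1.24, -1.05 and -1.64 in N_KO and -0.65, -0.36, -0.37, -0.41 and -0.27 in OGD_KO. All 10 OGD libraries were above all 10 normoxia libraries. Mt1 CPM was thus 0.406 of Mt2 CPM in N_WT and 0.723 in OGD_WT, 0.418 in N_KO and 0.752 in OGD_KO, as geometric means. The shift was 0.82 in WT and 0.83 in KO (two-sided exact permutation p = 0.00794 each, the smallest that 5 against 5 libraries can give, and 0.0318 adjusted over 8 ratio tests). With the libraries paired by culture, exact sign flips gave p = 0.0625 in each genotype, the smallest that 5 pairs can give, so the paired test cannot reach the threshold. The ratio was higher under OGD in 5 of 5 cultures of each genotype, which follows from the lack of overlap and adds no support. The genotypes differed in this ratio by 0.04 in normoxia (exact permutation p = 0.778) and 0.06 under OGD (exact permutation p = 0.492).

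The ratio of Mt1 to Mt3 moved less evenly. It rose by 0.39 in WT (exact permutation p = 0.175, adjusted p = 0.350) and by 0.59 in KO (exact permutation p = 0.0635, adjusted p = 0.169), and neither shift passed the test. In OGD_WT, 4 libraries stood between 0.62 and 0.69 and replicate 5 at -0.16. In OGD_KO, 4 libraries stood between 0.74 and 0.96 and replicate 2 at -0.17. The WT shift was 0.56 without OGD_WT replicate 5 and 0.55 without N_WT replicate 5. The KO shift was 0.80 without OGD_KO replicate 2. Leaving out that KO library also moved the genotype difference under OGD to 0.36, against 0.15 (exact permutation p = 0.460) with it. These libraries were singled out by the same values, so no test is given without them.

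**Figure D3:**
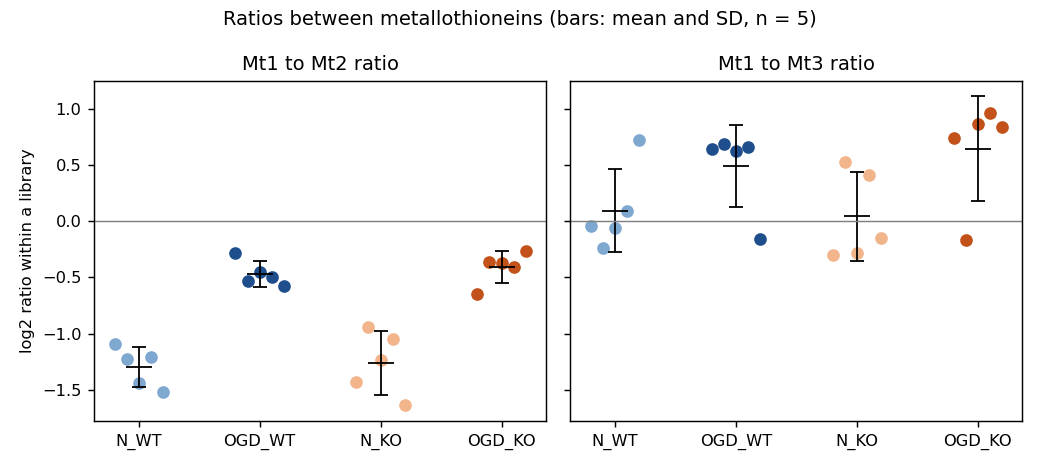
Log2 ratio of Mt1 to Mt2 (left) and of Mt1 to Mt3 (right) within each library, by group; points are libraries in the order of their replicate numbers and black bars the mean and SD (n = 5). For Mt1 to Mt2, all OGD libraries lie between -0.65 and -0.27 and all normoxia libraries between -1.64 and -0.94, while for Mt1 to Mt3 1 library in each OGD group sits apart below the other 4.

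Mtf1, the zinc-sensing transcription factor, did not pass the test. It stood between 18.7 and 27.9 CPM in N_WT, between 19.2 and 23.1 in OGD_WT, between 18.4 and 24.3 in N_KO and between 13.1 and 30.9 in OGD_KO. The groups overlapped throughout. The difference under OGD was -0.09 ± 0.14 (limma adjusted p = 0.652) in WT and -0.01 ± 0.18 (limma adjusted p = 0.982) in KO. Scaled to total reads the WT difference was -0.37 (limma adjusted p = 0.0480), which is close to the shift of the median gene on that scale.

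Slc30a1 encodes ZnT1, the main zinc exporter of the plasma membrane. It stood at 32.5, 42.4, 32.5, 29.1 and 31.6 CPM in N_WT and at 16.5, 11.4, 16.3, 15.7 and 19.3 CPM in OGD_WT. In N_KO it stood at 32.4, 26.0, 31.7, 37.3 and 43.0 CPM and in OGD_KO at 19.8, 18.7, 20, 23.1 and 13.1 CPM. All OGD libraries were below all normoxia libraries. Slc30a1 fell by 1.09 on the log2 scale (SE 0.16, limma adjusted p = 1.31e-05) in WT and fell by 0.83 (SE 0.17, limma adjusted p = 0.000693) in KO. It fell in 5 of 5 cultures of each, which follows from the lack of overlap. Within batch 3 the differences were -1.12 (limma adjusted p = 0.000113) and -0.94 (limma adjusted p = 0.0194).

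Slc30a4 encodes ZnT4, which moves zinc into vesicles. Its medians were 47.1 CPM in N_WT, 42.3 in OGD_WT, 46.6 in N_KO and 42.0 in OGD_KO, and the groups overlapped. It was lower in 5 of 5 WT cultures and 3 of 5 KO cultures, by -0.25 ± 0.16 (limma adjusted p = 0.204) and -0.16 ± 0.16 (limma adjusted p = 0.460). The lowest library of all, at 29.9 CPM, was OGD_KO replicate 5. Scaled to total reads the WT difference was -0.53 and passed (limma adjusted p = 0.00713).

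The importers Slc39a6 (ZIP6) and Slc39a10 (ZIP10) are close relatives whose proteins can pair at the plasma membrane. Slc39a10 stood at 105, 94.7, 91.5, 83.9 and 96.5 CPM in N_WT and at 125, 160, 126, 110 and 121 CPM in OGD_WT. In N_KO it stood at 95.7, 99.6, 96.6, 93.3 and 104 CPM and in OGD_KO at 117, 124, 130, 134 and 118 CPM. All OGD libraries were above all normoxia libraries, and the spread in N_KO was 4.12 CPM (SD) around a mean of 97.8. It rose by 0.42 ± 0.14 (1.34-fold, limma adjusted p = 0.0197) in WT and by 0.36 ± 0.13 (1.28-fold, limma adjusted p = 0.0333) in KO. The exact permutation p was 0.00794 in each genotype. The call was the least stable of the 4: with the culture number as a block the KO adjusted p was 0.0655, and within batch 3 it was 0.0598 in WT and 0.512 in KO (limma). It was lost in WT without N_WT replicate 3 (limma adjusted p = 0.0556). In KO it was lost without OGD_KO replicate 1 (0.0563) or 3 (0.0971) and without N_KO replicate 1 (0.0834) or 3 (0.0884), all limma adjusted p. Scaled to total reads the differences were 0.14 in WT and 0.07 in KO, so this rise is one relative to other genes.

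Slc39a6 did not pass the test. Its levels lay between 87.3 and 122 CPM in N_WT, 67.1 and 119 in OGD_WT, 66.8 and 153 in N_KO and 81.3 and 105 in OGD_KO. The difference was -0.08 ± 0.16 (limma adjusted p = 0.713) in WT and -0.11 ± 0.18 (limma adjusted p = 0.665) in KO. Slc39a6 overlaps Elp2 on the opposite strand, which had 312 to 847 reads per library. The library kit keeps strand, per the labels' protocols, but the strand setting of the counting is not given in the sources used here. Slc30a1, Slc30a4 and Mt2 also have an antisense gene model each, which has no row in all 4 tables. Mtf1 overlaps 1110065P20Rik on the opposite strand, which had 26 to 83 reads per library. Slc39a10 overlaps Gm28151 on its own strand, which had 5 to 19 reads per library. No 50-base word of the 3 metallothioneins or of Slc30a1 occurs in the transcripts of another gene.

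Compared per length of the principal transcript, Mt2 had the highest level of the 8 genes in N_WT, at 59.5 ± 11.1 CPM per kb (SD, n = 5). Slc39a6 followed with 26.5 ± 3.37, Mt1 with 22.0 ± 2.40, Mt3 with 21.5 ± 4.57 and Slc39a10 with 17.2 ± 1.40 CPM per kb, and Mt1 and Mt3, and Mt3 and Slc39a10, differed by less than the larger SD. Slc30a4 had 9.03 ± 1.64, Slc30a1 6.41 ± 0.973 and Mtf1 2.92 ± 0.491 CPM per kb. Under OGD in WT, Mt1 stood at 50.3 ± 15.4 CPM per kb and Mt2 at 74.4 ± 22.9, and Slc30a1 at 3.01 ± 0.542 came near Mtf1 at 2.75 ± 0.207. Mt1 rested on 103 to 187 reads per N_WT library and 151 to 477 per OGD_WT library.

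The size of the Mt1 and Mt2 response differed between cultures, and the cultures with small responses shared a batch label. The OGD minus normoxia difference of Mt1 was -0.08, 0.17 and 0.70 (log2) in the 3 cultures of batch 3.1 (KO2, WT5 and KO4), and between 0.95 and 1.95 in the other 7. For Mt2 it was -0.77, -0.67 and 0.06 in batch 3.1 and between 0.23 and 1.16 elsewhere. In normoxia these 3 cultures also had the highest Mt2, at 38.8, 40.9 and 41.1 CPM (WT5, KO2, KO4), against 22.9 to 31.1 CPM in the other 7. Normoxia Mt1 in the same order was 13.4, 21.2 and 19.8 CPM, against 7.88 to 13.3 CPM, so WT5 was barely higher. Normoxia Slc2a1 was 6.63, 11.3 and 10.2 CPM, against 3.74 to 6.46 CPM. Slc2a1 followed the same split, with differences of 2.42 to 3.12 in batch 3.1 and 3.76 to 5.08 elsewhere. Mt3 did not, with 0.15 to 1.05 in batch 3.1 and 0.38 to 0.91 elsewhere. The grouping was noticed in the data, so no test is given. With these 3 cultures left out, Mt2 was at 0.53 in WT and 0.77 in KO and Mt1 at 1.32 and 1.76. Larger values of both follow from the choice of cultures and are given with no test. Slc39a10, not used in that choice, was at 0.31 in KO and no longer called (limma adjusted p = 0.0549), where 40.7% of all genes were called, against 49.1% in WT. The part of the batch in the size of these differences was not tested.

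**Figure D4:**
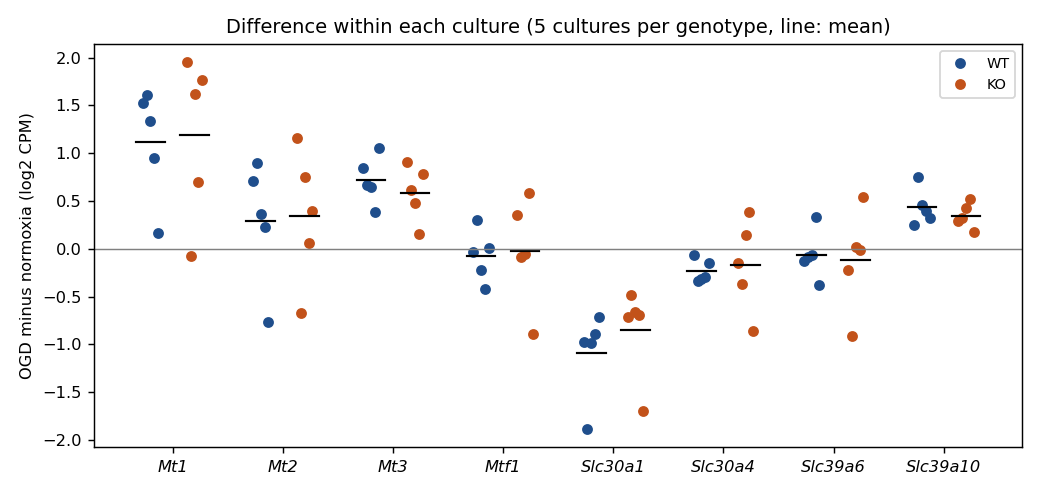
Difference between the OGD and the normoxia library of each culture (log2 CPM) for the 8 genes, in 5 WT (blue) and 5 KO (orange) cultures in the order of their numbers; the black line is the mean. Slc30a1 is below 0 and Mt3 and Slc39a10 are above 0 in all 10 cultures, while Mt2 is below 0 in WT5 (-0.77) and KO2 (-0.67).

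No difference between KO and WT cultures was detected in these genes. In normoxia 0 of 8 were called, where 0.0353% of 14152 genes were, and 0 of 8 had an unadjusted limma p under 0.05, where 1.81% did. The differences (KO minus WT) ran from -0.12 for Slc30a4 to 0.12 for Mt3, with standard errors of 0.12 to 0.23. The batches were unequal between the genotypes, with 1 WT and 2 KO cultures in batch 3.1. Without these 3 cultures Mt1 turned to -0.34, Mt2 to -0.15 and Mt3 to -0.17 in normoxia, none of them called. Under OGD 0 of 8 were called, where 0.0282% of 14185 genes were, and 0 of 8 had an unadjusted limma p under 0.05, where 1.78% did. The differences ran from -0.05 for Slc30a4 and Slc39a6 to 0.25 for Slc30a1 (95% interval -0.12 to 0.62). The 95% intervals of Mt1 were -0.40 to 0.54 in normoxia and -0.31 to 0.60 under OGD, so differences of that size in either direction lie within what 5 libraries per group allow. For Slc39a10 the intervals were narrower, -0.19 to 0.29 and -0.32 to 0.26.

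The response to OGD was also compared between genotypes directly, as the difference of the differences over all 20 libraries. No gene of 13688 was called by limma (0%), 99 (0.723%) had an unadjusted p under 0.05, and all 8 genes had an adjusted p of 1.00. The KO response minus the WT response was 0.07 (95% interval -0.68 to 0.82) for Mt1, 0.05 (-0.61 to 0.72) for Mt2 and -0.13 (-0.69 to 0.43) for Mt3. It was 0.24 (-0.27 to 0.75) for Slc30a1 and -0.09 (-0.48 to 0.30) for Slc39a10. Two-sided exact permutation tests of the 5 WT against the 5 KO culture differences gave p between 0.429 and 0.889 for the 8 genes, 0.889 each after adjustment over them.

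Among the other zinc transporters, lower levels under OGD prevailed in the SLC30 family. Of its 7 further genes 5 were measured, and 3 were lower and none higher in each genotype, beside 22.8% of all genes lower in WT and 19.9% in KO. Slc30a10, a manganese exporter of the family, fell by 0.94 (limma adjusted p = 0.000291) in WT and fell by 0.87 (0.000129) in KO. Slc30a7, a transporter of the Golgi, was at -0.53 (0.0398) and -0.60 (0.0119), and Slc30a9, a mitochondrial transporter, at -0.55 (0.00237) and -0.47 (0.0146), with limma adjusted p in brackets. Slc30a5 and Slc30a6, which work as a pair in the early secretory pathway, did not pass, with 0.08 and -0.12 in WT and 0.05 and -0.26 in KO. The median of the 5 was -0.53 in WT and -0.47 in KO.

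Of 12 further genes of the SLC39 family 9 were measured in both OGD comparisons. In WT 1 was higher and 2 lower, and in KO none was higher and 1 lower, so 3 and 1 of 9 were called where 44.3% and 40.9% of all genes were. Slc39a3, a plasma membrane importer, fell by 0.46 (limma adjusted p = 0.0113) in WT and fell by 0.56 (limma adjusted p = 0.00803) in KO. Slc39a9 fell by 0.70 in WT (limma adjusted p = 0.000323) and was at -0.38 in KO (limma adjusted p = 0.0510). Slc39a12 rose by 0.80 in WT (limma adjusted p = 0.00339) from 6 to 17 reads per N_WT library, and was at 0.84 in KO (limma adjusted p = 0.0572). Slc39a1, Slc39a2, Slc39a7, Slc39a11, Slc39a13 and Slc39a14 did not pass in either genotype, with differences from -0.41 for Slc39a11 to 0.33 for Slc39a7 in WT and from -0.22 for Slc39a11 to 0.41 for Slc39a14 in KO.

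**Figure D5:**
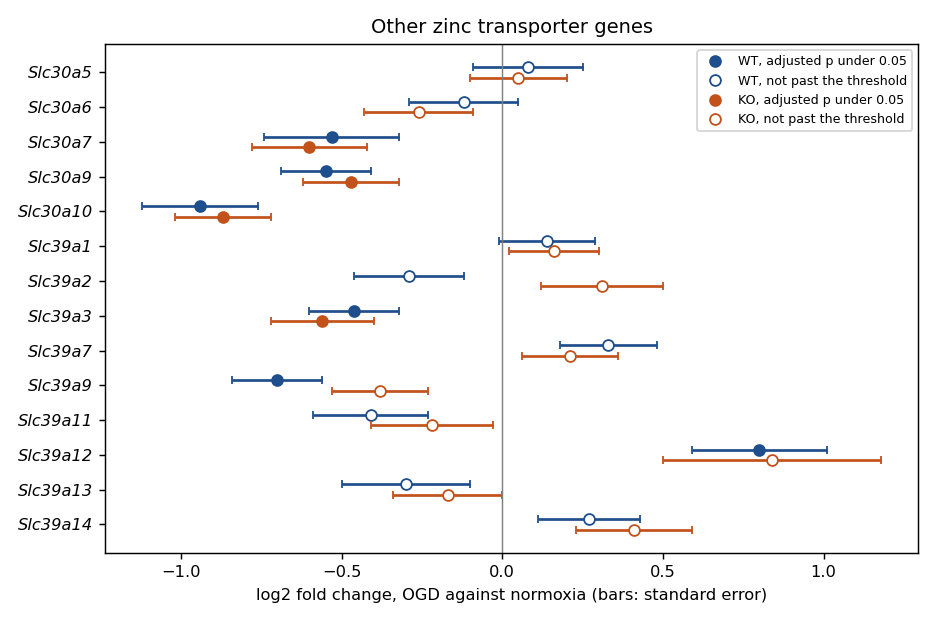
Log2 fold change under OGD against normoxia for the 14 other measured genes of the SLC30 and SLC39 families in WT (blue) and KO (orange) cultures; bars are standard errors from limma (5 libraries per group) and filled points have an adjusted p under 0.05. Slc30a7, Slc30a9, Slc30a10 and Slc39a3 are below 0 and filled in both genotypes.

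Of 8 other genes reported as MTF1 targets, 7 were measured, and 4 were higher and 1 lower in each genotype, where 21.6% of all genes were higher and 22.8% lower in WT, and 21% and 19.9% in KO. Hmox1, which degrades heme, rose by 2.03 (limma adjusted p = 1.97e-09) in WT and 2.04 (8.44e-08) in KO. Csrp1, a LIM domain protein, rose by 1.41 (2.98e-07) and 1.26 (6.41e-06), and Gclc, which makes the precursor of glutathione, by 0.75 (0.000942) and 0.66 (0.00915), with limma adjusted p in brackets. Ndrg1 fell by 0.49 (limma adjusted p = 0.0218) in WT and fell by 0.65 (limma adjusted p = 0.00215) in KO. The medians of the list were 0.56 in WT and 0.51 in KO. Several of these genes answer to other stress regulators as well.

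Of 6 genes listed for vesicles of zinc-releasing neurons 5 were measured, with 4 lower in WT and 3 in KO and none higher, where 22.8% and 19.9% of all genes were lower. Slc17a7, a vesicular glutamate transporter that is also among the cortical neuron markers below, fell by 1.69 (limma adjusted p = 7.25e-07) in WT and fell by 1.62 (limma adjusted p = 3.28e-05) in KO. Slc17a6 was at -1.03 and -1.25, and Ap3m2, a subunit of the adaptor that sorts vesicle proteins, at -0.91 and -1.06, all called. Of 4 measured genes listed with zinc-permeable channels, Trpm7 rose by 1.01 (limma adjusted p = 1.15e-05) in WT and 0.98 (limma adjusted p = 9.46e-05) in KO. Trpm2, Cacna1c and Gria2 did not pass the test. A gene on this list need not itself encode a channel that lets zinc through. In the comparisons of KO with WT, 0 of the measured genes of these lists, cell type markers included, were called by limma. Of the other metallothionein, Mt4, and of the microglia markers none was measured.

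Markers of glia were also present, and their levels moved with OGD. The summed level of 10 astrocyte markers was between 1250 and 1540 CPM in N_WT and between 2030 and 2550 in OGD_WT, and between 1010 and 1730 in N_KO and 1700 and 2550 in OGD_KO. In WT 7 of the 10 were higher and 1 lower, and in KO 5 were higher. Over all genes, 21.6% were higher and 22.8% lower in WT, and 21% and 19.9% in KO, which is the background for each marker list here. Slc1a3 rose by 1.08 in WT and 0.95 in KO, whereas Gfap was at -0.47 (called) in WT and -0.34 (not called) in KO and Aqp4 at 0.05 and 0.01. No astrocyte marker measured was at 0, and S100b and Gjb6 had no row in all 4 tables. The summed level of 10 cortical neuron markers was between 4850 and 6280 CPM in N_WT and 3070 and 5820 in OGD_WT, and between 5440 and 5640 in N_KO and 3270 and 4650 in OGD_KO, with 6 lower in each genotype. All 8 proliferation markers were higher in each genotype, with sums of 465 to 604 CPM in N_WT and 862 to 1480 in OGD_WT. The summed level of 7 oligodendrocyte lineage markers was between 274 and 341 CPM in N_WT and 320 and 471 in OGD_WT, with 1 higher and 2 lower in WT and 3 higher in KO. None of 8 microglia markers and 2 of 10 endothelial, mural and meningeal markers had rows in all 4 tables. In bulk RNA, more cells of a type and more RNA per cell cannot be told apart. The part of these markers and of mt-Rnr2 in the changes of the metallothioneins and transporters was not tested.

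Across the 20 libraries with group means removed, Mt1 and Mt2 were most alike among the 8 genes, with Pearson r = 0.91, and Mt1 and Slc39a6 followed with 0.71. Mt3 was less like Mt1 (0.47) and Mt2 (0.29), and Mt1 and Slc30a1 had r = -0.37. Among 12684 genes, those most like Mt1 were Mt2 (0.905), Zdhhc5 (0.887), Slc2a1 (0.878), Ccdc58 (0.864) and Sec13 (0.857). For Mt2 they were Rad51c (0.911), Mt1 (0.905), Ccdc58 (0.894), Pgk1 (0.890) and Hadh (0.889), and for Mt3 Rpl30 (0.905), Rcn2 (0.904), Vps37b (0.902), Gpsm2 (0.898) and Dhx35 (0.893). These correlations describe 20 libraries that share cultures and depth differences, and carry no test.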

How the data were processed

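RNA of the 20 libraries was sequenced after preparation with a strand-specific total RNA kit, per the labels' protocols. The authors deposited 4 tables of log2 CPM, 1 per comparison, with 14152 to 14375 gene symbols. The genome build mm10 is named in the submitters' processing notes, and the aligner, counting and gene filter are not given in the sources used here. In the deposited log2 values extreme values within a group of 5 were found to be pulled towards their neighbours (0.6 of the extreme plus 0.4 of the neighbour), as inferred from the numbers. Undoing this gave whole reads for at least 99.91% of values per library (within 0.05 reads, up to 500 reads), against 45.51% to 92.78% as deposited. No column was left out. Each comparison was fitted on the restored values of its table with limma 3.58.1 (R 4.3.3, lmFit, eBayes with trend), Benjamini-Hochberg adjusted and called under 0.05. The genotype by treatment term used joint log2 CPM (prior count 2, median-of-ratios size factors) with the culture as a block (correlation -0.19). Ratios were compared by exact permutation. Code was tested on simulated data.

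Culture labels and batches pair normoxia and OGD libraries. The deviations of paired libraries from their group means correlated between -0.8 and 0.03, over 0.1 in 0 of 10 cultures. For normoxia and OGD libraries of different cultures of a genotype the range was -0.25 to 0.23. Named genes were the members, the other SLC30 and SLC39 genes, at most 4 genes per list called in both OGD comparisons, Cdr1as, Slc2a1, and the 5 genes most like each metallothionein. Marker genes named, the lists and the members were chosen with earlier results of these data known. Alternatives were the deposited values, other scalings, prior counts and filters, voom, blocks, batches and leaving out each library.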

Additional observations from a re-analysis of the deposited data

Results flagged for a closer look

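Of 40 groups of 5 values examined (8 genes and 2 ratios in 4 groups), 3 had 1 library far from the other 4, and 2 are what chance gives at 1 in 20. Slc30a4 was at 4.91 log2 CPM in OGD_KO replicate 5, with the other 4 libraries between 5.38 and 5.50. The log2 ratio of Mt1 to Mt3 was -0.16 in OGD_WT replicate 5, with the others between 0.62 and 0.69. The same ratio was -0.17 in OGD_KO replicate 2, with the others between 0.74 and 0.96. The last 2 libraries both carry the batch label 3.1.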

How the results depend on the processing

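Under the deposited values, a prior count of 0.5, a mean log2 CPM of at least 1, median-of-ratios size factors and voom on the recovered reads (6344 genes called in WT and 5872 in KO), 4 of the 8 genes were called in each OGD comparison. Over all genes, the deposited values called 8280 of 14235 in WT and 8024 of 14375 in KO. The prior count gave 6244 and 5816, the filter on mean level 5810 of 13010 and 5382 of 12992, and median-of-ratios factors 6259 and 5854. Among the 8 genes the count was 2 in KO with libraries scaled to total reads (chosen after seeing the data), where 6768 genes were called in all. It was 1 in KO with batch 3 cultures alone, where 2341 genes were called in all. With the replicate number as a block, 5681 genes were called in WT and 4829 in KO, and Slc39a10 in KO was the single one of the 8 whose call changed. Sign flips within cultures gave 0.82 and 0.83 for the ratio of Mt1 to Mt2 with exact p = 0.0625, the smallest that 5 pairs allow. With the deposited values the Mt1 to Mt3 ratio shifted by 0.46 in WT (exact permutation p = 0.0159) and 0.65 in KO (exact permutation p = 0.0397). These p-values are not adjusted over the 8 ratio tests. The deposited values also have the extremes of each group pulled in, which narrows the spread between libraries.

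With the 3 cultures of batch 3.1 left out, also chosen after seeing the data, the ratio of Mt1 to Mt2 was 0.99 in KO and -0.19 for N_KO against N_WT, and that of Mt1 to Mt3 was 0.71 in WT and 0.16 for OGD_KO against OGD_WT. No p-value is given, because Mt1 and Mt2 chose the cultures. Signs turned for Slc39a6 in KO (0.12), for Mt1, Mt2 and Mt3 in N_KO against N_WT (-0.34, -0.15 and -0.17), and for the genotype difference of the response of Slc30a4 (-0.03), Slc39a6 (0.10), Mtf1 (-0.10) and Mt3 (0.08). None of these single-gene differences was called with or without the batch. Other sign changes, all of differences not called, were Mt2 in WT (0.27) at -0.01 and Slc30a1 in N_KO against N_WT at -0.02 with total reads, and Mtf1 in KO at 0.01 and Mt3 in OGD_KO against OGD_WT at 0.01 with deposited values. Mt2 was at -0.06 in KO (0.35 with all cultures) and -0.14 in OGD_KO against OGD_WT with batch 3 alone. With batch as a covariate, Mt1 and Mt2 were at -0.10 and -0.05 in N_KO against N_WT and Slc39a6 at 0.05 in OGD_KO against OGD_WT. The cause was not tested for any of these.

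Leaving out 1 library at a time, 3 to 5 genes were called in WT, 3 to 4 in KO, and 0 in both comparisons of KO with WT and in the genotype difference of the response. For ratios, a call here rests on the exact permutation p before adjustment. Values whose sign or call turned ranged in WT from -0.15 to 0.05 for Slc39a6, 0.12 to 0.44 for Mt2, 0.34 to 0.47 for Slc39a10 and 0.31 to 0.56 for the ratio of Mt1 to Mt3. In KO they ranged from -0.26 to 0.04 for Slc39a6, 0.33 to 0.38 for Slc39a10, -0.14 to 0.16 for Mtf1 and 0.51 to 0.80 for the ratio of Mt1 to Mt3. For N_KO against N_WT they ranged from -0.12 to 0.02 for Mtf1, -0.07 to 0.12 for Mt2, -0.11 to 0.24 for Mt1, -0.08 to 0.10 for Slc30a1, -0.04 to 0.13 for the ratio of Mt1 to Mt2 and -0.17 to 0.11 for the ratio of Mt1 to Mt3, for OGD_KO against OGD_WT from -0.14 to 0.06 for Slc30a4, -0.18 to 0.03 for Slc39a6, -0.08 to 0.05 for Slc39a10, -0.08 to 0.07 for Mt3, -0.08 to 0.24 for Mt2, -0.05 to 0.28 for Mt1 and -0.01 to 0.36 for the ratio of Mt1 to Mt3, and for the difference of the responses (1 culture left out) from -0.07 to 0.24 for Slc30a4, -0.22 to 0.15 for Slc39a6, -0.09 to 0.27 for Mtf1, -0.21 to 0.30 for Mt2 and -0.17 to 0.39 for Mt1.

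Counts of genes called over all genes between genotypes depended on the setting: 5 in normoxia and 4 under OGD became 9 and 12 with the deposited values, 11 and 17 with batch as a covariate, 4 and 1 with a prior count of 0.5, 3 and 3 with the filter, 3 and 2 with the block, 2 and 4 with batch 3 alone, and 5 and 2 with total reads. Leaving out 1 library gave 3 to 5 and 1 to 7. Between genotypes the block is of numbers that the samples only share. Mt1 rested on 103 to 187 reads per N_WT library, and how far depth limits the genotype comparison was not tested.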

Other observations

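Genes of copper and iron handling were called under OGD about as often as genes in general, or less often, against 44.3% of all genes in WT and 40.9% in KO. Of 10 copper genes 3 were higher and 2 lower in WT, and 2 higher and 2 lower in KO. The copper exporters Atp7b and Atp7a rose by 1.15 and 0.74 in WT and by 1.09 and 0.80 in KO. Slc31a2 was at -1.01 and -0.95 and Steap2 at -0.52 and -0.49 in WT and KO, all called. Of 9 measured iron genes 1 was higher and 2 lower in WT, and 1 higher and 1 lower in KO. Ftl1, a ferritin subunit, rose by 0.85 (limma adjusted p = 0.00121) in WT and 1.07 (limma adjusted p = 0.000695) in KO.

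Glucocorticoids also induce Mt1 and Mt2. Of 7 genes that respond to them, or encode their receptor, 5 were higher and 2 lower in WT and 3 higher and 2 lower in KO. Over all genes, 21.6% were higher and 22.8% lower in WT, and 21% and 19.9% in KO. Ddit4 rose by 1.79 in WT and 1.66 in KO and Per1 by 1.41 and 1.09, while Fkbp5 was at -0.88 and -0.82 and Sgk1 at -0.63 and -0.46, all called. The part of glucocorticoids in the changes of Mt1 and Mt2 was not tested.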
